A study of Homo sapiens with 36 samples.

Results

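The miR-17-92 cluster was followed at 3 stages of its production: the host transcript MIR17HG, the guide strands that act on target mRNAs, and the passenger strands that are normally discarded. The members were chosen by name, as 8 mature miRNA entries of the miRNA count table and 1 gene of the mRNA count table, 9 of 63247 entries in all (8 of 2656 miRNAs and 1 of 60591 genes). They were the guides miR-17-5p, miR-18a-5p, miR-19a-3p, miR-20a-5p, miR-19b-3p and miR-92a-3p, the passengers miR-19b-1-5p and miR-92a-1-5p, and MIR17HG. In HT-29 cells MIR17HG and both passengers fell under both treatments, whereas the guides moved by at most 0.49 on the log2 scale. By a different test (DESeq2), the falls of miR-19b-1-5p under both treatments and of miR-92a-1-5p under OD (the oxyquinoline derivative) did not pass. Those of miR-19b-1-5p were also lost when certain single libraries were left out. In Caco-2 cells MIR17HG fell under the oxyquinoline derivative, and no other member passed the test under either treatment.

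The libraries came from Caco-2 and HT-29, established human colorectal adenocarcinoma cell lines, treated for 24 h with 300 µM cobalt chloride (CoCl2) or with 5 µM of the oxyquinoline derivative 4896-3212 (OD), both used as chemical mimics of hypoxia. Controls received 0.5 µl of DMSO per ml of medium, the vehicle in which OD was dissolved. CoCl2 was dissolved in water, and DMSO in the CoCl2 medium is given by the study's methods for Caco-2 but not by the labels. A differentiation period of 21 days preceded treatment in Caco-2 only, so cell line and culture state cannot be told apart. Each of the 12 groups (line, treatment and RNA class) held 3 biological replicates, giving 18 mRNA and 18 miRNA libraries, and CoCl2 and OD were compared with the same control libraries. Both lines carried the mRNA of EPCAM, an epithelial adhesion protein, at group means of 475 to 1372 counts per 1000000 counts (CPM). Sucrase-isomaltase (SI), a brush border enzyme of enterocytes, stood at 289 ± 38.1 CPM (SD, n = 3) in untreated Caco-2 and at 12.8 ± 0.366 CPM in untreated HT-29. Of 6 markers of other cell types, the leukocyte genes PTPRC and CD3E had at most 2 and 14 counts in a library, and group means reached at most 25.1 CPM for COL1A1, 8.84 for PECAM1, 0.974 for VWF and 0.881 for COL3A1, genes of stroma and endothelium. In Caco-2, 4 of the 6 were tested and 3 passed an adjusted p of 0.05 under each treatment, all lower. In HT-29 both tested markers passed: COL1A1 rose by 0.77 ± 0.22 on the log2 scale under CoCl2 and by 2.01 ± 0.17 under OD, and PECAM1 fell by 2.00 ± 0.35 and by 0.60 ± 0.26. Their part in the results was not tested.

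MIR17HG is transcribed as 1 long RNA from which the nuclease Drosha, with its partner DGCR8, cuts hairpins; Dicer then trims each hairpin to a duplex. An Argonaute protein keeps the guide strand of the duplex, and the passenger strand is mostly degraded. The cluster is known as an oncogenic locus that is amplified or overexpressed in several tumours, colorectal cancer among them, and MYC and E2F factors activate its promoter. Its guides repress, among others, the pro-apoptotic BCL2L11, the cell cycle inhibitor CDKN1A and the receptor TGFBR2.

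The 6 guides share 4 seeds (bases 2 to 8, in capitals), the part of a miRNA that pairs with its targets. The sequences are those of RefSeq (GRCh38.p14), where all 8 members were matched, and they are given because seeds group the guides into families and because the passengers carry other seeds.
hsa-miR-17-5p: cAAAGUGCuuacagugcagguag
hsa-miR-20a-5p: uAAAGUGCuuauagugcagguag
hsa-miR-18a-5p: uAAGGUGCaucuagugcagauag
hsa-miR-19a-3p: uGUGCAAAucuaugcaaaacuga
hsa-miR-19b-3p: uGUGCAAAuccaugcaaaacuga
hsa-miR-92a-3p: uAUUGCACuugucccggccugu
hsa-miR-92a-1-5p: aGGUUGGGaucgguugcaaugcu
hsa-miR-19b-1-5p: aGUUUUGCagguuugcauccagc

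Counted from the 5′ end, miR-17-5p and miR-20a-5p differ by C1U and C12U, and miR-19a-3p and miR-19b-3p by U11C only. The chromosome X cluster miR-106a-363 makes close copies: miR-106a-5p differs from miR-17-5p by C1A, and miR-18b-5p from miR-18a-5p by A20U. Reads of such pairs depend on how the counting settled 1-base differences, which is not given in the sources used here. Mature miR-19b-3p and miR-92a-3p are identical from both clusters (genes MIR19B1 and MIR92A1 on chromosome 13, MIR19B2 and MIR92A2 on chromosome X), so their counts are not specific to the locus. Their chromosome 13 passengers, miR-19b-1-5p and miR-92a-1-5p, are. The 2 hairpins follow, with both mature arms in capitals, the 5p passenger before the 3p guide, because both arms of these 2 are members.
MIR19B1: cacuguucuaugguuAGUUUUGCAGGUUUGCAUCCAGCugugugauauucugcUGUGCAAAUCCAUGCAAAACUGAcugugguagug
MIR92A1: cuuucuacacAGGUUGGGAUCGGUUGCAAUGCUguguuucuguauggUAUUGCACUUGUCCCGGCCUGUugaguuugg

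In GENCODE release 44 (GRCh38), MIR17HG (ENSG00000215417) is a long noncoding RNA gene on the plus strand of chromosome 13, chr13:91347686-91397592. The 6 hairpins lie in the order MIR17, MIR18A, MIR19A, MIR20A, MIR19B1 and MIR92A1, from position 91350605 to 91351391. Each lies within an exon of 3 and an intron of 8 of the 16 annotated MIR17HG transcripts. An antisense gene on the minus strand (ENSG00000292285) overlaps MIR17HG, and whether the counting used strand is not given in the sources used here.

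The miRNA libraries held 34043 to 13092513 counts, and 3 of the 18 held fewer than 1000000: CoCl2 replicate 1 (34043) and OD replicate 3 (466975) of HT-29, and control replicate 3 (763531) of Caco-2. The mRNA libraries held 12925719 to 22332639 counts. In HT-29 CoCl2 replicate 1 a miRNA with 3 counts stood at 85.2 CPM, so that library could not show the level of either passenger, and results are given below with and without the 3 shallow libraries.

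MIR17HG was a low-abundance transcript in every group, at 9 to 129 counts per library, and it responded differently in the 2 lines. In untreated HT-29 it held 84, 114 and 129 counts, or 5.42, 6.23 and 4.84 CPM. After CoCl2 it held 9, 15 and 11 counts (0.672, 1.04 and 0.905 CPM), and after OD 14, 30 and 25 counts (0.724, 1.75 and 1.33 CPM). Every treated HT-29 library was below every control. In bulk RNA, fewer cells with a transcript and less of it per cell cannot be told apart. Its level fell by 2.63 ± 0.25 (SE) on the log2 scale under CoCl2, or 6.19-fold (adjusted p = 1.9e-10, edgeR's quasi-likelihood test with Benjamini-Hochberg adjustment), and fell by 2.12 ± 0.21 under OD, or 4.34-fold (adjusted p = 1.06e-09). Of all genes tested in HT-29, 41.3% were called under CoCl2 and 17.1% under OD by the same rule, an adjusted p under 0.05 with an absolute log2 fold change above 1.

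In untreated Caco-2 MIR17HG held 66, 44 and 53 counts, or 3.84, 2.95 and 3.67 CPM. After CoCl2 it held 40, 65 and 65 counts (3.33, 4.72 and 3.52 CPM), which overlapped the controls, and the log2 fold change was 0.14 with a 95% interval of -0.29 to 0.57 (adjusted p = 0.59; 23.4% of genes called), turning to -0.18 when libraries were scaled by size only, which moved the median of all genes by -0.32. After OD it held 20, 23 and 26 counts (1.35, 1.38 and 1.83 CPM), all below the controls. It fell by 1.20 ± 0.25 on the log2 scale, or 2.30-fold (adjusted p = 0.000323; 11.7% of genes called).

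**Figure D1:**
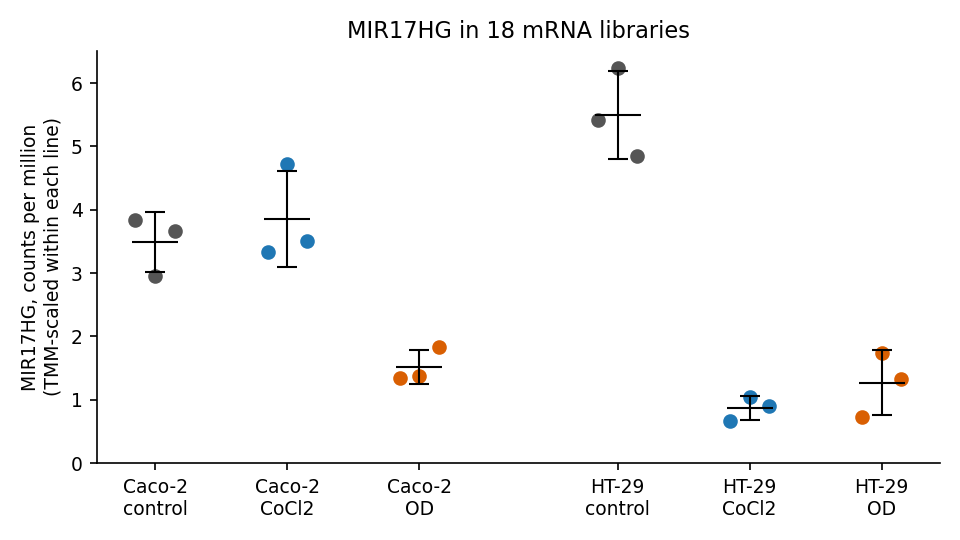
MIR17HG in CPM (TMM-scaled within each line) in the 18 mRNA libraries by line and treatment, where points are libraries and bars are the mean ± SD of 3. The 3 OD libraries of Caco-2 and all 6 treated libraries of HT-29 sit at 0.672 to 1.83, below every control (2.95 to 6.23).

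The lines differed in the CoCl2 response itself: the log2 fold change in HT-29 less that in Caco-2 was -2.88 ± 0.34 (contrast over all 18 libraries, adjusted p = 1.12e-08; 21.6% of genes called). The OD responses differed by less, -0.93 ± 0.35 (HT-29 less Caco-2, adjusted p = 0.029; 42.9% of genes passed at an adjusted p under 0.05). That last difference did not pass without OD replicate 1 of HT-29 (adjusted p = 0.136), OD replicate 3 of Caco-2 (0.0971), or control replicate 2 of Caco-2 (0.0663) or of HT-29 (0.0649). Between the treatments, MIR17HG was higher under CoCl2 than under OD in Caco-2 by 1.34 ± 0.25 (adjusted p = 8.7e-05; 11.7% of genes called). In HT-29 the same difference was -0.51, with a 95% interval of -1.16 to 0.14 (adjusted p = 0.16; 29.9% of genes called). It was -1.004 when scaled by library size (adjusted p = 0.00703), -0.80 without OD replicate 1 (adjusted p = 0.0242) and -0.23 without OD replicate 2 (adjusted p = 0.572), and the last 2 values span those of all 9 libraries left out in turn. Untreated HT-29 held more MIR17HG than untreated Caco-2, by 0.73 ± 0.19 on the log2 scale (adjusted p = 0.00089; 79.1% of genes passed at an adjusted p under 0.05).

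The transcription factors known to act on the MIR17HG promoter were read beside it. MYC, a growth-promoting factor, went the same way as MIR17HG in HT-29: it averaged 162 ± 5.79 CPM in controls, 44.4 ± 1.78 under CoCl2 and 74.7 ± 3.01 under OD (SD, n = 3 each). It thus fell by 1.87 ± 0.05 and fell by 1.12 ± 0.05 on the log2 scale (both adjusted p below 0.001). In Caco-2 MYC rose by 1.23 ± 0.09 under CoCl2 and by 0.28 ± 0.09 under OD, where MIR17HG fell. The MYC responses of the lines differed by -3.21 ± 0.11 for CoCl2 and -1.42 ± 0.11 for OD (HT-29 less Caco-2, both adjusted p below 0.001).

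E2F1 and E2F2, factors of the G1 to S transition, did not follow MIR17HG in Caco-2. Under OD in that line they rose by 1.43 ± 0.09 and 1.47 ± 0.17 on the log2 scale. In HT-29 E2F2 fell by 1.25 ± 0.16 under CoCl2 and by 1.31 ± 0.15 under OD, and E2F1 fell by 0.55 ± 0.08 under CoCl2 and rose by 0.27 ± 0.07 under OD. E2F3 rose in HT-29 by 1.13 ± 0.05 under CoCl2 and fell by 0.33 ± 0.06 under OD. Under CoCl2 and OD in that line MAX rose by 1.20 ± 0.06 and 0.85 ± 0.06, and STAT3 by 0.64 ± 0.05 and 0.30 ± 0.05. MYCN, a MYC relative, fell by 1.58 ± 0.14 under CoCl2 and by 0.61 ± 0.13 under OD in Caco-2, and was too low to be tested in HT-29.

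Of 7 listed factors (MYC, MYCN, MAX, E2F1, E2F2, E2F3 and STAT3), 6 of 7 tested passed an adjusted p of 0.05 in Caco-2 under CoCl2 (4 higher, 2 lower) and 6 of 7 under OD (5 higher, 1 lower). In HT-29 all 6 tested passed under each treatment, 3 higher and 3 lower. Of all genes, 64.7% and 50.4% passed by that rule in Caco-2, and for HT-29 the shares were 82.8% and 68.8%, so most genes passed as well. Whether any factor bears on MIR17HG here was not tested.

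**Figure D2:**
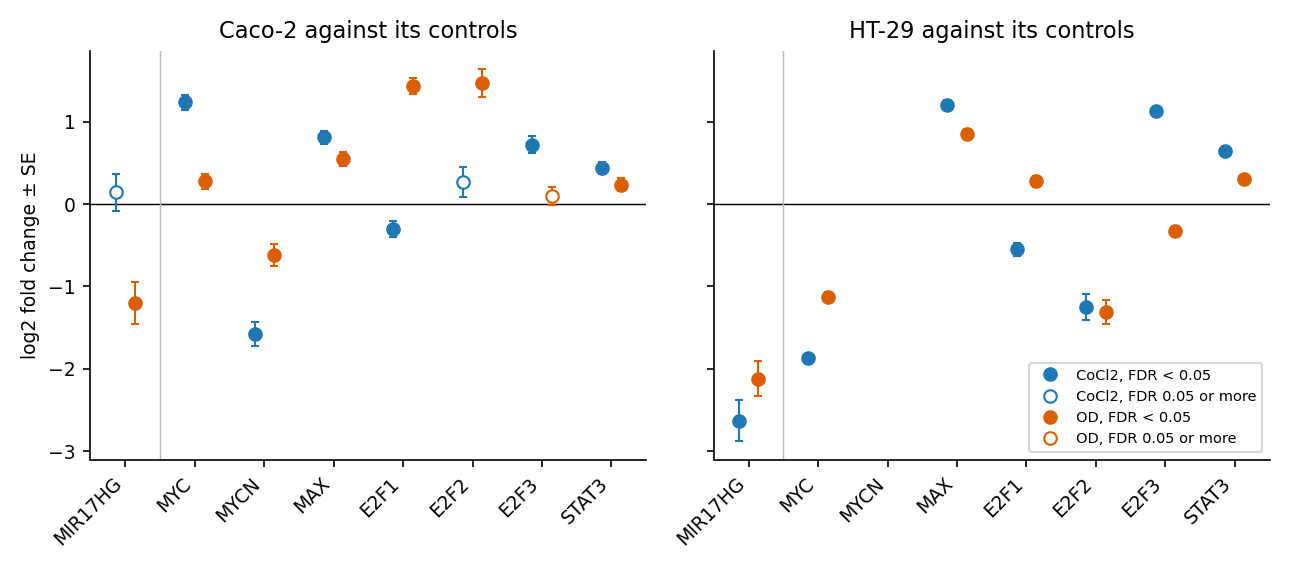
log2 fold change ± SE of MIR17HG and of 7 transcription factors against control, in Caco-2 (left) and HT-29 (right), where filled points passed an adjusted p of 0.05, open points did not, and MYCN has no point in HT-29. MYC stands at 1.23 and 0.28 in Caco-2 and at -1.87 and -1.12 in HT-29, while MIR17HG stands at 0.14 and -1.20, and at -2.63 and -2.12.

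Proliferation genes moved with the treatments too, as did most genes (under CoCl2, 64.7% of genes passed for Caco-2 and 82.8% for HT-29, and under OD 50.4% and 68.8%). Of 10 replication and mitosis genes, 8 rose and 1 fell under OD in Caco-2 (median log2 fold change 0.81, against -0.02 for all genes), while 1 rose and 8 fell under CoCl2 in HT-29 (median -0.48, against -0.03). Under OD in HT-29, 2 rose and 7 fell (median -0.37, against 0.01), and under CoCl2 in Caco-2, 2 rose and 3 fell (median -0.02, against -0.03). The proliferation antigen MKI67 rose by 0.57 ± 0.07 under OD in Caco-2 and fell by 0.92 ± 0.05 under CoCl2 and by 0.50 ± 0.05 under OD in HT-29. The part of these changes in the MIR17HG values was not tested.

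The mature guides were abundant and stayed close to their control levels. Together the 6 took 3.38 ± 0.233% of all miRNA counts in untreated Caco-2 and 3.54 ± 0.435% in untreated HT-29 (SD, n = 3), and between 2.80% and 3.87% in each of the 18 libraries. Within that sum miR-92a-3p led with 52.9 ± 0.56% in untreated Caco-2 and 46.4 ± 5.24% in untreated HT-29. It was followed by miR-20a-5p with 30.7 ± 0.591% and 29.3 ± 2.73%, and by miR-17-5p with 13.2 ± 0.356% and 21.2 ± 2.23%. The rest were scarcer, at 1.74 ± 0.154% and 1.37 ± 0.184% for miR-19b-3p, 1.08 ± 0.0633% and 1.12 ± 0.11% for miR-19a-3p, and 0.393 ± 0.126% and 0.657 ± 0.0892% for miR-18a-5p. The order of the 6 means was the same in both lines. In untreated HT-29 the ranges of miR-19b-3p (1.16% to 1.49%) and miR-19a-3p (0.997% to 1.21%) overlapped, so those neighbours were not separated there.

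**Figure D3:**
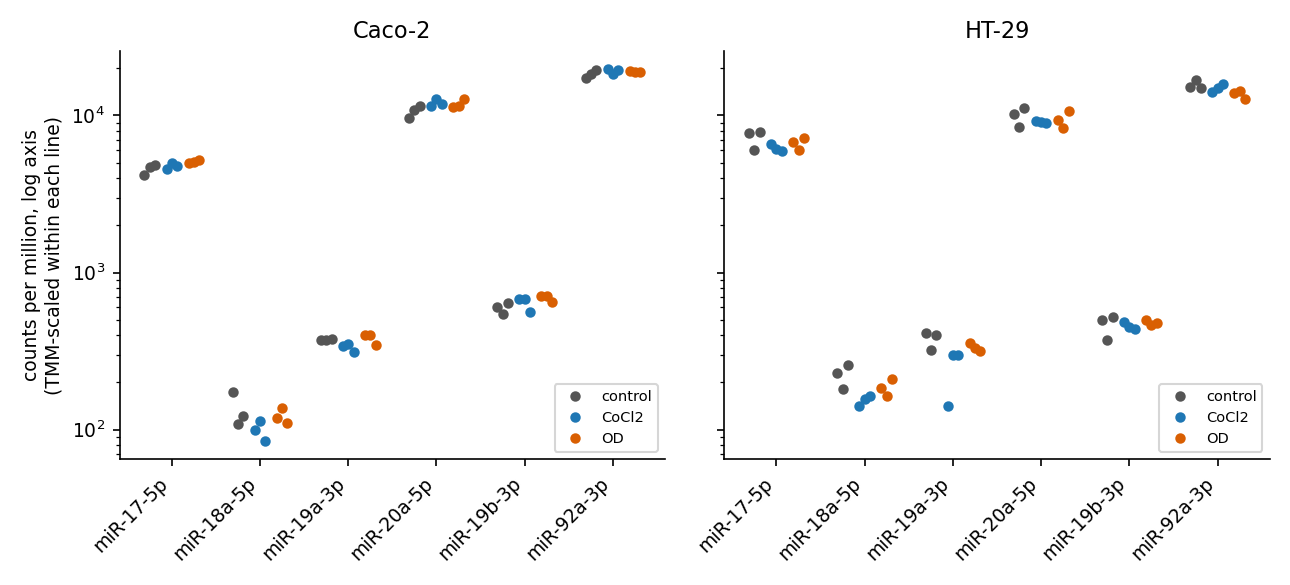
The 6 guide strands in CPM (TMM-scaled within each line, log axis) in the 18 miRNA libraries, coloured by treatment. The groups of each guide lie close together and mostly overlap, and the low miR-19a-3p point in HT-29, at 142, is CoCl2 replicate 1 with 5 counts of it.

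Over the 24 tests of a guide against control (6 guides, 2 lines, 2 treatments), none was called and 1 passed an adjusted p of 0.05. In HT-29 under CoCl2 the log2 fold changes were -0.06 for miR-92a-3p, -0.07 for miR-19b-3p, -0.13 for miR-20a-5p, -0.23 for miR-17-5p, -0.39 for miR-19a-3p and -0.49 for miR-18a-5p. miR-18a-5p was the guide that passed, falling by 0.49 ± 0.14 (adjusted p = 0.033; 12.2% of miRNAs passed at that threshold). Its controls stood at 230, 182 and 259 CPM and its CoCl2 libraries at 142, 156 and 164 CPM, the first of these on 5 counts. The groups did not overlap, but the adjusted p rose above 0.05 without any 1 of 5 libraries: CoCl2 replicates 1, 2 and 3 (0.0509, 0.24 and 0.166) and control replicates 1 and 3 (0.0923 and 0.226). It did so too without the shallow libraries (0.0576) and by DESeq2 (0.243). Single alternatives brought other guide values past the test. miR-18a-5p under CoCl2 in Caco-2 passed with no filter (-0.45, adjusted p = 0.013) and without control replicate 2 (-0.62, adjusted p = 0.00737). Without control replicate 2 of HT-29, miR-17-5p (-0.36, adjusted p = 0.015) and miR-19a-3p (-0.48, adjusted p = 0.00423) passed under CoCl2, and miR-18a-5p under OD (-0.46, adjusted p = 0.00623). With library-size scaling miR-19a-3p passed under CoCl2 in HT-29 (-0.54, adjusted p = 0.0444). As a share of the 6 guides, which needs no scaling, miR-18a-5p was lower under CoCl2 in both lines. It took 0.23% to 0.305% against 0.311% to 0.538% in Caco-2, and 0.462% to 0.52% against 0.562% to 0.74% in HT-29. The miR-19a-3p share was lower too, at 0.842% to 0.944% against 1.03% to 1.15% in Caco-2. In HT-29 it was 0.462% to 0.967% against 0.997% to 1.21%, the 0.462% on 5 counts. Each of these comparisons gave p = 0.1 (exact permutation test, two-sided, the smallest possible). The miR-20a-5p share was higher under CoCl2 in Caco-2, at 31.2% to 34.2% against 30.0% to 31.1%, without overlap. The other guides overlapped their controls under CoCl2, as did miR-20a-5p in HT-29. Under OD the miR-92a-3p share was lower in Caco-2, at 49.9% to 52.1% against 52.4% to 53.5%. The miR-19b-3p share was higher under OD in HT-29, at 1.51% to 1.61% against 1.16% to 1.49%. Each gave p = 0.1 by the same exact test, and all other guide shares overlapped their controls under OD.

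Under OD in HT-29 the guides lay between -0.30 (miR-18a-5p) and 0.04 (miR-19b-3p). In Caco-2 they lay between -0.46 (miR-18a-5p under CoCl2) and 0.21 (miR-19b-3p under OD). The 95% intervals of the 12 HT-29 values reached no lower than -0.77 and no higher than 0.28, and those of the 12 Caco-2 values no lower than -0.78 and no higher than 0.40. For MIR17HG in HT-29 the corresponding intervals were -3.11 to -2.15 under CoCl2 and -2.53 to -1.71 under OD, with no overlap with those of any guide. The mRNA and miRNA values come from separate libraries and scalings, and the difference between them was not tested.

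In Caco-2 none of the 8 cluster miRNAs was called under CoCl2 or OD by edgeR (0.936% and 0.375% of 534 miRNAs called; 6.55% and 2.06% past an adjusted p of 0.05), and none by DESeq2. Between CoCl2 and OD in Caco-2 none was called either, by edgeR (0.375% of miRNAs called) or DESeq2. Unadjusted p-values under 0.05 were found by edgeR for 2 of the 8 under CoCl2, 0 under OD and 1 between the treatments. By DESeq2 they were found for 2, 1 and 0. The share of all miRNAs at that unadjusted threshold is not given here, so these counts are not read as a result. Shares of all miRNA counts, which amount to scaling by library size alone, showed a small rise. The 6 guides took 3.67% to 3.73% of counts under CoCl2 and 3.79% to 3.83% under OD, above the 3.14% to 3.61% of controls (exact permutation test, two-sided, p = 0.1 for each, the smallest that 3 against 3 allows). That scaling moved the median log2 fold change of all miRNAs in Caco-2 by 0.036 under CoCl2 and by 0.071 under OD. In HT-29 the shares were 2.96% to 3.18% under CoCl2 and 2.80% to 3.17% under OD, against 3.05% to 3.87% in controls, and the groups overlapped.

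In HT-29 both passengers fell while the guides from the same hairpins did not pass the test. miR-92a-1-5p held 364, 320 and 308 counts in HT-29 controls (33.7, 25.9 and 32.8 CPM). It held 0, 54 and 32 after CoCl2, the 0 being the library of 34043 counts, with 5.54 and 4.17 CPM in the other two. After OD it held 108, 73 and 7 counts (12.4, 8.44 and 15.2 CPM). Apart from CoCl2 replicate 1, which could not show a level this low, every treated library lay below every control, including the shallow OD replicate 3. The strand fell by 2.65 ± 0.23 on the log2 scale under CoCl2, or 6.28-fold (adjusted p = 1.8e-07), and fell by 1.52 ± 0.20 under OD, or 2.87-fold (adjusted p = 7.93e-05).

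miR-19b-1-5p was scarcer, with 50, 35 and 46 counts in HT-29 controls (4.63, 2.83 and 4.90 CPM). It had 0, 11 and 16 counts after CoCl2 and 14, 20 and 0 after OD, each 0 in a shallow library. The deep treated libraries stood at 1.13 to 2.31 CPM, below the controls. It fell by 1.38 ± 0.34 under CoCl2, or 2.59-fold (adjusted p = 0.0111), and fell by 1.09 ± 0.32 under OD, or 2.14-fold (adjusted p = 0.0434). Thus 2 of 8 cluster miRNAs were called under each treatment in HT-29, both lower, where 4.87% of 616 miRNAs were called under CoCl2 (2.6% lower) and 2.92% under OD (1.62% lower).

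Those calls were not equally firm. miR-92a-1-5p under CoCl2 was called under every alternative tried (log2 fold change -2.89 to -2.46, adjusted p at most 0.000245), and without the 3 shallow libraries it was -2.64 (adjusted p = 1.51e-05). Under OD it was called in every edgeR fit (-1.55 without the shallow libraries, adjusted p = 0.000903), but by DESeq2 the value was -1.44 with an adjusted p of 0.287. miR-19b-1-5p under CoCl2 lost its call without CoCl2 replicate 2 (-0.97, adjusted p = 0.228) and by DESeq2 (adjusted p = 0.999). Under OD it lost its call without the shallow libraries (-1.04, adjusted p = 0.109), by DESeq2 (adjusted p = 0.999) and without any 1 of 6 single libraries: each OD library (adjusted p = 0.258, 0.0631 and 0.0594 for replicates 1 to 3), control replicate 1 (0.11) or 3 (0.113), or CoCl2 replicate 1 (0.0666).

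Under CoCl2 miR-92a-1-5p was lower than under OD in HT-29 by 1.13 ± 0.25 on the log2 scale, or 2.19-fold (adjusted p = 0.00996; 2.27% of miRNAs called). That call did not hold without CoCl2 replicate 3 (-0.96, adjusted p = 0.192), without OD replicate 1 (-0.92, adjusted p = 0.122) or by DESeq2 (adjusted p = 0.599). For miR-19b-1-5p the difference was -0.28 with a 95% interval of -1.11 to 0.55 (adjusted p = 0.855).

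**Figure D4:**
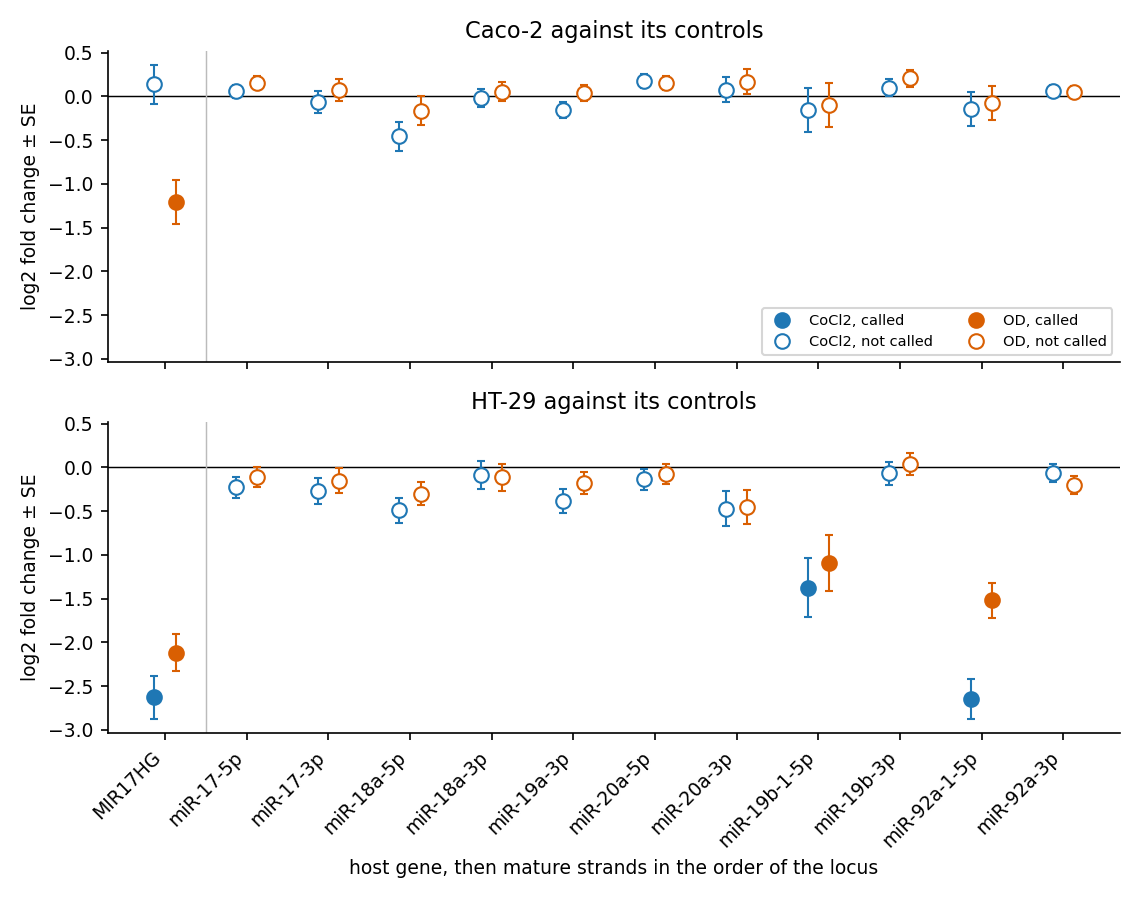
log2 fold change ± SE against control for MIR17HG and for the mature strands of the cluster in the order of the locus, in Caco-2 (top) and HT-29 (bottom), where filled points were called and open points were not. In HT-29 MIR17HG, miR-19b-1-5p and miR-92a-1-5p lie at -1.09 or lower, while the other strands lie between -0.49 and 0.04.

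In Caco-2 neither passenger changed by the test. miR-92a-1-5p held 83, 122 and 21 counts in controls (14.4, 17.2 and 28.1 CPM), 50, 113 and 124 after CoCl2 (13.3, 15.2 and 17.5 CPM) and 105, 85 and 99 after OD (18.2, 17.3 and 13.7 CPM). The groups overlapped. The log2 fold changes were -0.15 under CoCl2, with a 95% interval of -0.52 to 0.23, and -0.08 under OD. miR-19b-1-5p stood at 2 to 31 counts per Caco-2 library, with log2 fold changes of -0.16 under CoCl2 and -0.10 under OD.

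The responses of miR-92a-1-5p differed between the lines when the difference itself was tested, by -2.39 ± 0.31 for CoCl2 (HT-29 less Caco-2, adjusted p = 2.57e-05; 1.48% of 675 miRNAs called) and by -1.44 ± 0.29 for OD (adjusted p = 0.00546; 0.741% called). The OD difference was -1.26 by DESeq2 (adjusted p = 0.0978). For miR-19b-1-5p the differences were -1.11 ± 0.47 and -0.99 ± 0.45, which did not pass (adjusted p = 0.322 and 0.371).

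The balance of the 2 arms within 1 library needs no scaling between libraries. In HT-29 controls miR-92a-1-5p made up 0.221%, 0.153% and 0.22% of the reads of miR-92a-1-5p and miR-92a-3p together. In the deep CoCl2 libraries it made up 0.037% (exact Clopper-Pearson 95% interval 0.0278% to 0.0482%) and 0.0264% (0.0181% to 0.0373%), and in the OD libraries 0.0889%, 0.0588% and 0.119%, the last with an interval of 0.0478% to 0.245%. CoCl2 replicate 1 had 0 of 499 reads. With 3 reads taken as the upper limit of a 0, not a Clopper-Pearson limit, that allows a share of up to 0.601%. It so cannot be placed against the controls. These intervals and limits cover counting error only.

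For miR-19b-1-5p the share of both arms was 0.913%, 0.75% and 0.928% in HT-29 controls. It was 0.251% and 0.477% in the deep CoCl2 libraries and 0.321% and 0.497% in the deep OD libraries. The shallow OD library had 0 of 220 reads, which allows up to 1.36% with 3 reads again taken as the upper limit of a 0. Over 3 against 3 libraries each of these 4 comparisons gave p = 0.1 (exact permutation test, two-sided, the smallest possible), with no overlap between groups. Both CoCl2 comparisons count replicate 1 as 0, from 0 of 499 reads for miR-92a-1-5p and 0 of 17 for miR-19b-1-5p. The OD comparison of miR-19b-1-5p counts the 0 of 220 reads. None of these 0 values can be placed against the controls, so the p-values that include them carry little weight. The deep treated libraries alone lay below every control. In Caco-2 the miR-92a-1-5p share was 0.0675% to 0.144% over the 9 libraries and the groups overlapped, as did those of miR-19b-1-5p (0.413% to 0.793%). Because miR-92a-3p and miR-19b-3p also come from chromosome X, a change of either source would move these shares.

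**Figure D5:**
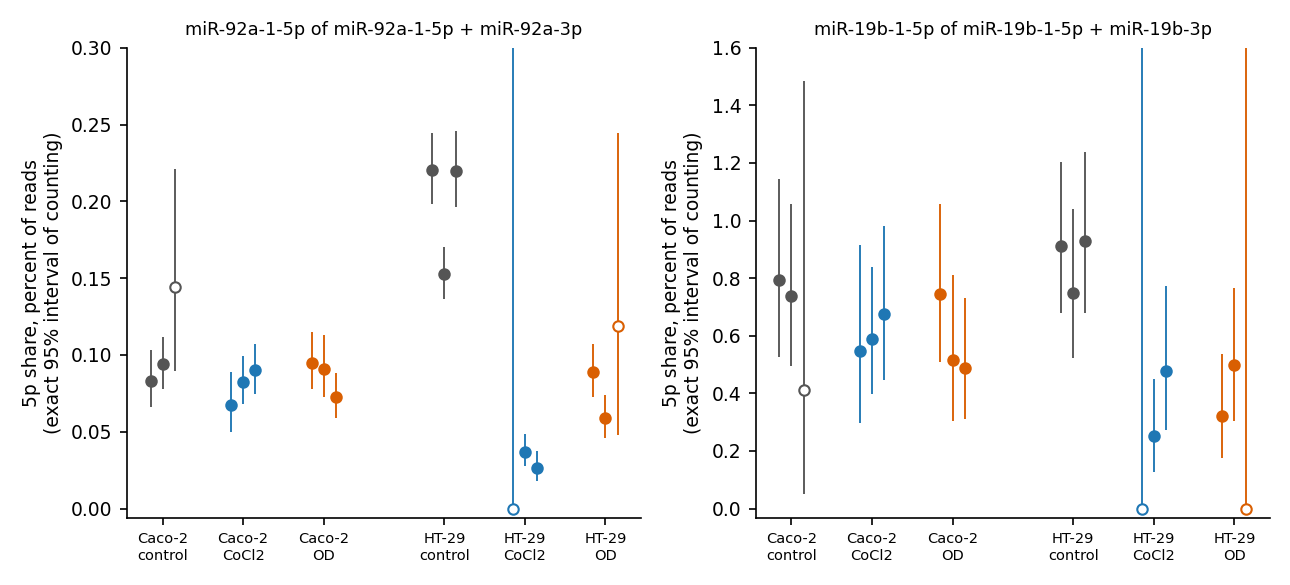
Share of the 5p passenger among the reads of both arms of the miR-92a-1 (left) and miR-19b-1 (right) hairpins, in percent, in the 18 miRNA libraries, where points are libraries, vertical lines exact 95% intervals of counting (cut off at the top where they leave the axis), and open points the 3 libraries under 1000000 counts. In HT-29 the deep treated libraries lie at 0.0264% to 0.0889% for miR-92a-1-5p, under the controls at 0.153% to 0.221%.

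The other passengers of the cluster did not pass the test in HT-29. There miR-17-3p changed by -0.27 ± 0.15 under CoCl2 and -0.15 ± 0.14 under OD, miR-18a-3p by -0.09 ± 0.16 and -0.11 ± 0.15, and miR-20a-3p by -0.47 ± 0.20 and -0.45 ± 0.20, none of them past an adjusted p of 0.05. miR-20a-3p nevertheless stood slightly lower in every deep treated library. It stood at 13.9, 10.6 and 15.1 CPM in controls, 0, 9.03 and 10.0 after CoCl2 and 10.3, 9.59 and 4.33 after OD. The 0 and the 4.33 are shallow libraries with 0 and 2 counts, and the first could not show a level this low. Its share of both arms was 0.124% to 0.136% in controls and 0.0992% and 0.113% in the deep CoCl2 and 0.111% and 0.114% in the deep OD libraries (exact permutation test over 3 against 3, two-sided, p = 0.1 for each treatment, the smallest possible, with no overlap). The CoCl2 p-value counts the 0 of the shallow library, on 325 reads of miR-20a-5p, which cannot be placed against the controls. The miR-18a-3p share was higher under CoCl2, at 26.4%, 26.7% and, on 5 of 10 reads, 50.0%, against 20.7% to 23.3% in controls (p = 0.1 by the same exact test). Differences between passengers were not tested. miR-19a-5p had at most 3 counts in a library and was not tested. Of 4 listed passengers outside the members, then, 3 were tested and 0 passed in HT-29 or in Caco-2, by edgeR. The miR-92a-2-5p passenger from chromosome X, the counterpart of miR-92a-1-5p, had 0 counts in all 18 libraries, and the share of miR-92a-3p that came from that locus could not be read from these counts.

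Among relatives that share the seeds, miR-32-5p changed by the test. In the miR-106b-25 cluster, which lies in an intron of the replication gene MCM7, 6 of 6 strands were tested. Of these miR-25-5p, a passenger, passed in HT-29, falling by 0.46 ± 0.14 under CoCl2 and by 0.61 ± 0.14 under OD (adjusted p = 0.045 and 0.00757; 7.14% of miRNAs passed under OD), and no strand passed in Caco-2. The abundant guides of that cluster, miR-93-5p, miR-25-3p and miR-106b-5p, lay between -0.17 and 0.22 in all 4 comparisons. MCM7 itself rose in Caco-2 by 0.29 ± 0.08 and 0.74 ± 0.08 and stood at 0.09 and -0.08 in HT-29, without passing. Of 10 strands of the miR-106a-363 cluster, the filter kept 4 for Caco-2 and 3 for HT-29, and 0 passed by edgeR. miR-32-5p, which shares the seed of miR-92a-3p and lies elsewhere, fell under CoCl2 by 0.41 ± 0.09 in Caco-2 and by 0.52 ± 0.12 in HT-29 (adjusted p = 0.0142 and 0.00487; 6.55% of miRNAs passed in Caco-2), and did not pass under OD.

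The mRNAs of the processing machinery stayed within 1 log2 unit of control, with 1 exception. Of 15 listed genes, 4 passed under CoCl2 (3 higher, 1 lower) and 7 under OD (2 higher, 5 lower) in Caco-2, where 64.7% and 50.4% of all genes passed. In HT-29, 13 of 14 tested passed under CoCl2 (10 higher, 3 lower) and 12 of 14 under OD (6 higher, 6 lower), with 82.8% and 68.8% of all genes past the same threshold. DGCR8, the RNA-binding partner of Drosha, fell by 1.08 ± 0.06 under OD in HT-29, that exception, and by 0.13 ± 0.05 under CoCl2. DROSHA rose by 0.46 ± 0.05 under CoCl2 and fell by 0.64 ± 0.06 under OD in HT-29. AGO2, an Argonaute, rose in all 4 comparisons, by 0.24 ± 0.05 to 0.67 ± 0.05. Their part in the guide and passenger levels was not tested.

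The lines could not be ordered by their untreated guide levels. In the model over 18 libraries, untreated HT-29 differed from untreated Caco-2 by -0.96 ± 0.10 for miR-92a-3p, -0.84 ± 0.11 for miR-20a-5p, -0.73 ± 0.14 for miR-19a-3p and -1.11 ± 0.13 for miR-19b-3p, the 1 call among the 8 miRNAs (62.4% of 675 miRNAs called, 80.6% past an adjusted p of 0.05). miR-17-5p (-0.09) and miR-18a-5p (-0.08) did not pass. Scaling by library size alone moved the median of all miRNAs in this comparison by 0.88, turned miR-17-5p to 0.76 and miR-18a-5p to 0.82, and left miR-92a-3p at -0.13. Leaving out any 1 of the 18 libraries also brought the guides that passed closer to 0, to between -0.61 and -0.48 for miR-92a-3p, -0.50 and -0.33 for miR-20a-5p, -0.40 and -0.21 for miR-19a-3p and -0.77 and -0.56 for miR-19b-3p. It turned miR-17-5p to between 0.26 and 0.44 and miR-18a-5p to between 0.24 and 0.64. Their edgeR adjusted p then ranged from 0.00312 to 0.0951 and from 0.000332 to 0.223. The shares of the 6 guides among all miRNA counts, given above, overlapped between the untreated lines. Within the cluster miR-17-5p took a larger part in HT-29 (18.6% to 22.5%) than in Caco-2 (12.9% to 13.6%), and that ratio does not depend on scaling.

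Genes known as targets of the cluster were counted as a list written from general knowledge. Of 21, 17 passed under CoCl2 in Caco-2 (12 higher, 5 lower; median log2 fold change 0.22) and 11 under OD (9 higher, 2 lower; median 0.02). In HT-29, 17 of 19 tested passed under CoCl2 (11 higher, 6 lower; median 0.61) and 18 of 19 under OD (12 higher, 6 lower; median 0.34). Of all genes, 64.7% (Caco-2) and 82.8% (HT-29) passed under CoCl2, 50.4% and 68.8% under OD, and their medians lay between -0.03 and 0.01.

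Some targets went the same way throughout. MICA, a stress ligand of natural killer cells, rose by 1.00 ± 0.09 under CoCl2 and 0.64 ± 0.09 under OD in Caco-2 and by 1.66 ± 0.06 and 1.32 ± 0.06 in HT-29. CDKN1A rose by 1.26 ± 0.09, 0.93 ± 0.10, 1.85 ± 0.08 and 1.73 ± 0.08 in the same order, and VEGFA, an angiogenic factor that hypoxia induces, by 1.39 ± 0.07, 1.21 ± 0.07, 1.86 ± 0.05 and 0.80 ± 0.05.

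Others parted between the lines. BCL2L11 rose in HT-29 by 1.04 ± 0.08 under CoCl2 and 0.87 ± 0.08 under OD, and in Caco-2 it fell by 0.58 ± 0.08 under CoCl2 (-0.12 under OD, adjusted p = 0.192). The line difference was 1.51 ± 0.11 for CoCl2 and 0.97 ± 0.10 for OD (HT-29 less Caco-2, both adjusted p below 0.001). TGFBR2 fell by 1.09 ± 0.05 under CoCl2 in HT-29 and rose by 0.45 ± 0.07 in Caco-2. ITGA5, an integrin subunit, rose by 4.17 ± 0.11 under CoCl2 and 3.85 ± 0.11 under OD in Caco-2 and was too low to be tested in HT-29.

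Seed matches were then counted in the annotated 3′ UTRs, as the 8 bases that pair with bases 2 to 8 of the guide followed by an A: GCACTTTA for miR-17-5p and miR-20a-5p, GCACCTTA for miR-18a-5p, TTTGCACA for the miR-19 guides and GTGCAATA for miR-92a-3p, on the transcript strand only. Of the 21 listed targets 9 held no such match for any guide, MICA, CDKN1A and VEGFA among them. In HT-29 under CoCl2 the genes with a match had median log2 fold changes of 0.18 (679 genes), 0.17 (231 genes), 0.12 (841 genes) and 0.24 (435 genes), against 0.01 for all 12412 genes with a UTR. Under OD in HT-29 the medians were 0.07, 0.05, 0.05 and 0.11, and in Caco-2 they lay between 0.05 and 0.13 under CoCl2 and between 0.01 and 0.12 under OD. Genes with a match had longer UTRs, with medians of 3037 to 3373 bases in HT-29 against 1303 for all genes, and the part of UTR length in these medians was not tested.

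The profile of the guides over the 18 libraries, centred within each line, was most like that of miR-17-3p, the passenger of miR-17-5p (Pearson r 0.91 with the mean of the 6 guides, among 345 miRNAs). miR-32-5p (0.88), miR-429 (0.83), miR-1180-3p (0.83) and miR-335-5p (0.80) followed. Without the 3 shallow libraries miR-17-3p no longer led: r was 0.895 for miR-335-5p, 0.893 for miR-32-5p and 0.891 for miR-17-3p. With scaling factors computed within each line, miR-17-3p was again ranked 1, at 0.83, and miR-335-5p at 0.81, while miR-32-5p, miR-429 and miR-1180-3p were at 0.71, 0.71 and 0.67. Each guide set against the mean of the other guides gave r from 0.39 (miR-92a-3p) to 0.85 (miR-18a-5p), and with factors within each line from -0.16 (miR-92a-3p) to 0.60 (miR-17-5p), so miR-92a-3p followed the others least. The passengers miR-92a-1-5p and miR-19b-1-5p gave 0.68 and 0.60 with the mean of the guides. With factors within each line they gave 0.76 and 0.51. MIR17HG was most like UBE2Q2 (0.95), ZNF33B (0.95), SDHAF3 (0.95), GEMIN5 (0.94) and NOC3L (0.94) among 10436 genes. These correlations describe 18 libraries that share treatments, and depth and scaling enter all of them.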

How the data were processed

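Whole-number counts per gene and per mature miRNA were taken as the authors deposited them. Libraries were made from total RNA with an Illumina stranded mRNA kit (75-base single reads) and a small RNA kit (50-base reads). The authors trimmed mRNA reads with cutadapt 2.10 and aligned them with STAR 2.7.5b to GRCh38.p13 with GENCODE 34. The submitters' processing notes also name FastQC 0.11.9, Bowtie 1.1.1 and edgeR 3.30.3, without their roles. How miRNA reads were assigned is not given in the sources used here. The deposited tables of log2 expression were not used; in them MIR17HG is listed at 0 in every HT-29 library although its counts are above 0.

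Each line and RNA class was fitted separately (9 libraries, 3 groups) with edgeR 4.0.16 (R 4.3.3): filterByExpr, TMM scaling, glmQLFit and glmQLFTest, two-sided, with Benjamini-Hochberg adjustment over all features tested. Called means an adjusted p under 0.05 with an absolute log2 fold change above 1, the study's thresholds. Line differences and untreated lines came from a model over the 18 libraries of a class. SE is the absolute log2 fold change over the square root of F. CPM levels use TMM factors computed within each line, a choice made after seeing that factors over both lines depended on the filter. Alternatives were library size only, RLE factors, DESeq2 1.42.0, no filter, no fold limit, a replicate block, each library left out, and no shallow miRNA library. The steps were tested on simulated counts. All 9 members in every comparison were reported, and any feature of the related lists could be named; the likeness rule took the 5 non-members with the highest r. The members and lists were chosen with earlier results of these data known. Of the related lists, 2 genes are not reported here and are in none of the counts over those lists. Depth was 34043 to 13092513 counts for miRNA and 12925719 to 22332639 for mRNA libraries.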

Additional observations from a re-analysis of the deposited data

Results flagged for a closer look

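Differences in response between HT-29 and Caco-2 were themselves past the test for 2 members, each under both treatments, in the edgeR model over 18 libraries. For miR-92a-1-5p the log2 fold change in HT-29 less that in Caco-2 was -2.39 for CoCl2 (adjusted p = 2.57e-05) and -1.44 for OD (adjusted p = 0.00546). Of all miRNAs tested, 1.48% and 0.741% were called in these comparisons. The OD difference did not pass by DESeq2 (-1.26, adjusted p = 0.0978). Within HT-29 the values were -2.65 and -1.52, and within Caco-2 -0.15 and -0.08. In HT-29 the treated libraries were below all 3 controls, apart from the library of 34043 counts, whose 0 counts carry no information on this strand.

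For MIR17HG the corresponding differences were -2.88 for CoCl2 (adjusted p = 1.12e-08) and -0.93 for OD (adjusted p = 0.0291). Many genes did the same: 21.6% were called for the CoCl2 difference, and 42.9% passed an adjusted p of 0.05 for the OD difference. With 1 library left out at a time, the edgeR adjusted p of the MIR17HG OD difference reached 0.136. The values were -2.63 and -2.12 within HT-29 and 0.14 and -1.20 within Caco-2. Caco-2 cells were differentiated and HT-29 cells were not, so the line and the culture state cannot be told apart in any of these differences.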

How the results depend on the processing

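MIR17HG and miR-92a-1-5p in HT-29 under CoCl2, and MIR17HG under OD in both lines, were called under every alternative tried. The count of called cluster miRNAs was less stable. By DESeq2 it was 1 in place of 2 for CoCl2 in HT-29, 0 in place of 2 for OD in HT-29, and 0 in place of 1 both for CoCl2 against OD in HT-29 and for the OD difference between the lines. For OD in HT-29 it was 1 with a replicate block, since miR-19b-1-5p then stood at -0.96 with an adjusted p of 0.0383, and 1 without the shallow libraries. Same-numbered miRNA libraries correlated at -0.181 to 0.101 in Caco-2 and -0.098 to 0.0962 in HT-29, and 4 of 9 libraries in each line correlated best with their own number, so replicate numbers were not taken as pairs. Between the untreated lines the count was 1, 5 with no fold limit, and 0 by library size, with no filter, without the shallow libraries and without any 1 library. With no fold limit MIR17HG passed there (0.73) and in the OD difference between the lines (-0.93).

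Scaling by library size moved the median of all genes by -0.63 for CoCl2 in HT-29, where MIR17HG became -3.26. By the same scaling MIR17HG was -0.18 for CoCl2 in Caco-2 and -1.004 for CoCl2 against OD in HT-29 (adjusted p = 0.00703). Signs of miRNA values changed too. Library size gave -0.014 for miR-20a-5p and -0.023 for miR-92a-3p (CoCl2 against OD, Caco-2), -0.057 for miR-19b-3p (OD, HT-29; -0.0037 with no filter) and -0.21 for miR-18a-5p (CoCl2 difference between lines; -0.14 with no filter, -0.0078 by DESeq2). Without the shallow libraries miR-92a-1-5p was 0.037 (OD, Caco-2) and miR-20a-5p 0.026 (CoCl2 against OD, HT-29), and DESeq2 gave 0.25 for miR-19b-1-5p (CoCl2 against OD, HT-29). Between untreated lines, where miR-19a-3p and miR-20a-5p had been at -0.73 and -0.84, library size gave 0.76 for miR-17-5p, 0.82 for miR-18a-5p, 0.13 for miR-19a-3p, 0.0064 for miR-20a-5p and 0.014 for miR-19b-1-5p. There miR-17-5p and miR-18a-5p were 0.50 and 0.56 with no filter and 0.30 and 0.27 without the shallow libraries, and miR-18a-5p was 0.0035 by DESeq2.

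Leaving out 1 library at a time gave counts of 1 to 2 for CoCl2 and for OD in HT-29, 0 to 1 for CoCl2 against OD in HT-29 and 0 to 0 between untreated lines. MIR17HG ranged from -0.019 to 0.23 (CoCl2, Caco-2) and from -1.22 to -0.65 (OD difference between lines). In Caco-2 the ranges were -0.0094 to 0.10 for miR-17-5p (CoCl2), -0.32 to 0.11 for miR-18a-5p, -0.22 to 0.075 for miR-92a-1-5p and -0.36 to 0.12 for miR-19b-1-5p (OD), and -0.020 to 0.053 for miR-20a-5p, -0.014 to 0.044 for miR-92a-3p, -0.21 to 0.020 for miR-92a-1-5p and -0.25 to 0.20 for miR-19b-1-5p (CoCl2 against OD). In HT-29 they were -0.22 to 0.028 (CoCl2) and -0.11 to 0.12 (OD) for miR-19b-3p, -0.20 to 0.0015 for miR-20a-5p (OD), and -0.13 to 0.024 for miR-20a-5p and -0.73 to 0.12 for miR-19b-1-5p (CoCl2 against OD). Between lines they were -0.33 to 0.077 for miR-18a-5p (CoCl2 difference), 0.26 to 0.44 for miR-17-5p and 0.24 to 0.64 for miR-18a-5p (untreated). The cause was not tested for any of these changes.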
